A study of Mus musculus with 4 samples.

Results

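A line with a pair of CTCF sites removed from the HoxA cluster was compared with the wild-type (WT) line as undifferentiated mouse embryonic stem cells (ESC). The measure was the ratio of chromosome insulation scores in the deletion line to those in WT. A HindIII fragment entered the comparison if its score was above 0 in both ESC libraries, which held for 461 of 479 listed fragments. The other 18 fragments did not meet this rule and were left out. Each fragment is described by its score in WT, its score in the deletion line and the log2 ratio of deletion line over WT, so that a value above 0 is higher in the deletion line.

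The series profiled WT cells and a line labelled Δ5|6:7|9 as ESC and as motor neurons (MN), with 1 library in each of the 4 groups. Both ESC groups were cultured with Lif, 1 µM of the MEK1/2 inhibitor PD0325901 and 3 µM of the GSK3 inhibitor CHIR99021, so they differ by label in genotype alone. The labels list the same 2 inhibitors at the same concentrations for both MN groups. Contacts were captured by 5C, in which primers designed to the ends of restriction fragments read out which fragments of a locus were ligated to each other after fixation. Per the labels, annealing used 3C templates from 2 biological replicates, but each table holds a single combined score per fragment. Whether the deletion line is a single clone is not given in the sources used here, and contact scores hold no expression values with which to check the labelled cell type.

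HoxA genes encode transcription factors that give cells their position along the head-to-tail axis, and their order on the chromosome follows the order in which they are used along the body. CTCF binds DNA and halts the extrusion of chromatin loops by cohesin, so its sites often mark borders between neighbouring contact domains. In pluripotent cells the cluster is generally known to be silent and covered by Polycomb marks, whereas in motor neurons part of it becomes active. The study is known to concern CTCF borders within the cluster. The question here was how the structure of the cluster differed in the deletion line before differentiation.

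The line's label names 2 intervals, Hoxa5 to Hoxa6 and Hoxa7 to Hoxa9. In the order of the RefSeq gene table, 2 genes (Hoxa6 and Hoxa7) lie between the sites and 4 (Hoxa9, Hoxa10, Hoxa11 and Hoxa13) follow the second. Skap2, which encodes an adaptor protein of immune cell signalling, precedes the cluster with rising coordinate. Evx1, which encodes a homeobox factor of spinal cord interneurons, follows Hoxa13, and Hibadh, an enzyme of valine breakdown, comes after it. That table is of a later build than the mm9 coordinates of the scores, so it was used for order only. The site or gene that each fragment carries was therefore not assigned, and fragments are placed by their mm9 coordinates on chromosome 6 and by the side of the cluster they face.

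Low scores are read here, as is usual, as few contacts passing over a fragment, and local minima as boundaries; the direction of the authors' score is not given in the sources used here. Scores averaged 1.00 in both ESC libraries, so a score of 1 is close to the mean of either library. How the scores were scaled is not given in the sources used here. Across the 461 fragments, from 50272733 to 53939620, the WT scores ranged from 0.401 to 2.00 and those of the deletion line from 0.375 to 1.92. The lowest fragment was the same in both, 51123835 to 51140455. The highest was 53838542 to 53850958 in WT and the adjoining 53850959 to 53857472 in the deletion line. As a measure of spread, the rest of the region was used, meaning the 395 fragments with midpoints below 51.9 Mb or from 52.4 Mb on, where the log2 ratio had an SD of 0.088 and ran from -0.27 to 0.31. With 1 library per line there is no replicate check, and no difference below was tested.

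The deletion line scored higher than WT over 1 stretch of consecutive listed fragments at the HoxA cluster. In all, 18 of 461 fragments (3.9%) were higher by at least 0.25 on the log2 scale, and 1 (0.217%) was lower by as much. Of the 18, 13 were consecutive, from 52130049 to 52233685, a stretch of 104 kb whose scores averaged 0.824 in WT and 1.15 with the deletion. Its mean log2 ratio was 0.48 (SD 0.11 over 13 fragments). Elsewhere no more than 2 consecutive fragments passed 0.25, and the mean of any 13 consecutive fragments in the rest lay between -0.14 and 0.15. In the bin of 100 kb from 52.1 to 52.2 Mb, called the HoxA bin below, 11 of 19 fragments (57.9%) passed 0.25, against 5 of 395 (1.27%) in the rest. Most of the cluster is generally known to lie there in mm9. The ends of the cluster were not placed, so the bin may not hold all of it, and the raised stretch runs past 52.2 Mb. The 13 consecutive fragments were 2.82% of all scored fragments and held 47.9% of the summed squared log2 ratios. Because the stretch was picked by these same ratios, its high mean and large share follow in part from the selection. Its mean beside other runs of 13 is a description only.

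**Figure D1:**
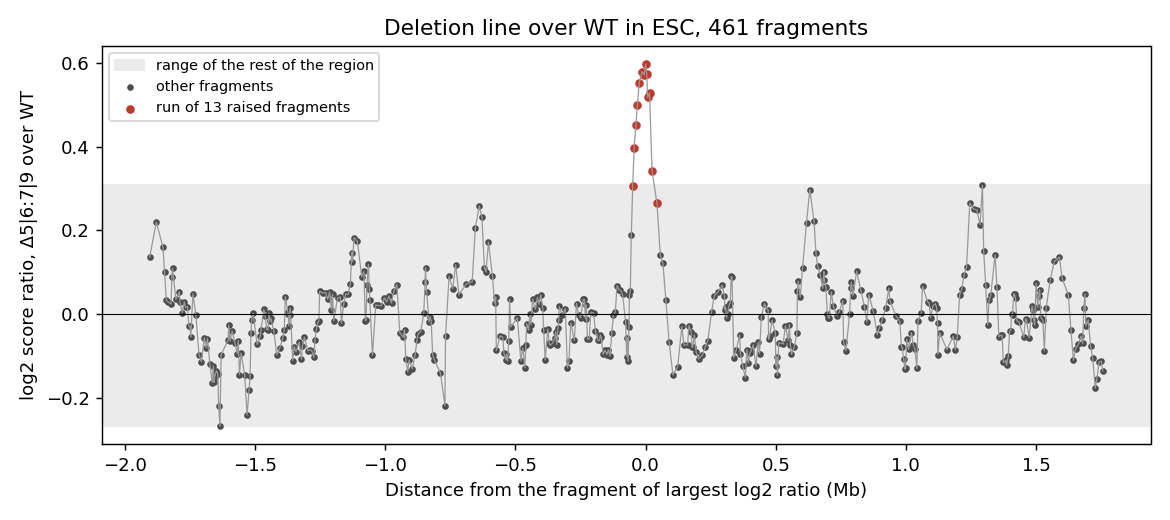
The vertical axis is the log2 ratio of scores, deletion line over WT in ESC, and the horizontal axis the distance in Mb from the fragment of largest ratio. Red points are the 13 consecutive fragments of the raised stretch, and the grey band is the range of the rest of the region, -0.27 to 0.31, which 11 of the 13 exceed.

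The profile through the cluster shows where the stretch began. On the Skap2 side the first 8 fragments of the bin, from 52102714 to 52128537, averaged 1.28 in both lines, with log2 ratios from -0.11 to 0.19. The highest WT fragment of the bin was among them, 52116908 to 52118127, which scored 1.48 in WT and 1.44 with the deletion. The lines parted over the next fragments: the log2 ratio was 0.055 at 52121063 to 52124760, 0.19 at 52124761 to 52128537, 0.31 at 52130049 to 52134172 and 0.40 at 52134173 to 52140923. At the last of these WT had a second, lower summit, with a score of 1.30. With the deletion the same fragment scored 1.72 and was the summit of the bin. Among all 461 scores of that line it ranked 3rd from the top, while the WT summit ranked 12th in its own profile.

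From there the ratio climbed slowly to a plateau. At 52140924 to 52148203 the scores were 1.16 (WT) and 1.58 (deletion line), and at 52148204 to 52151567 they were 1.10 and 1.56. The 7 fragments from 52151568 to 52203348 (51.8 kb) all had log2 ratios of at least 0.5. Within this plateau the ratio hardly varied while the scores themselves fell steeply. The fragment from 52151568 to 52163061 went from 0.973 in WT to 1.43 in the deletion line (log2 ratio 0.55). That from 52163062 to 52173421 went from 0.831 to 1.24 (0.58), and 52174043 to 52179067 from 0.809 to 1.20 (0.57). Each of these lay below the regional mean in WT and above it in the deletion line. The largest ratio of the region, 0.60, was at 52179068 to 52183981, with scores of 0.716 and 1.08. Its neighbour 52183982 to 52188538 scored 0.672 and 0.998, and the short fragment from 52188539 to 52190053 scored 0.528 and 0.756.

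**Figure D2:**
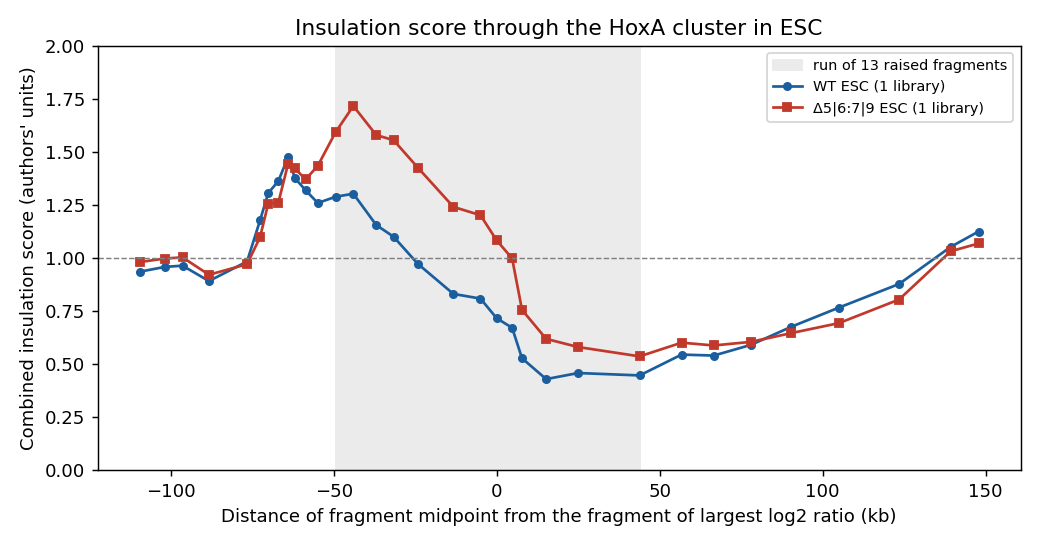
Authors' combined insulation score of each fragment (vertical axis) in WT ESC (blue) and deletion-line ESC (red), 1 library each, against distance in kb from the fragment of largest log2 ratio; the dashed line is a score of 1 and the shading the 13 raised fragments. The summit at the left is 1.48 in WT and 1.44 with the deletion at the same fragment, after which the deletion line stays above WT down to the minimum, 0.430 in WT and 0.537 with the deletion.

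On the Hoxa13 side both lines reached low scores, and the excess of the deletion line shrank. The WT minimum of the cluster, 52190054 to 52203348, scored 0.430 in WT and 0.619 with the deletion. The fragment after it, 52203349 to 52209630, scored 0.458 and 0.581, and 52217060 to 52233685 scored 0.447 and 0.537. These 3 WT scores lay within a narrow range, so the floor of the WT trough was nearly flat, while the deletion line kept falling and reached its minimum at the last of them. The midpoint of the minimum was 28.7 kb higher in the deletion line. With profiles smoothed over 3 fragments the shift was 18.9 kb. Of the 24 WT minima called in ESC, 19 fell on the same fragment in both lines. Other WT minima without a partner within 20 kb, described below, lay 24.1 to 28.1 kb from the nearest deletion-line minimum. No fragment was listed between 52209631 and 52217059, a gap of 7429 bp inside the raised stretch. The WT minimum was the 3rd lowest score of the region, and the minimum of the deletion line the 9th lowest.

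The trough remained a boundary by the criterion used. As a local minimum of the log2 score its prominence was 1.78 in WT and 1.68 with the deletion, far above the limit of 0.25. From summit to minimum the score dropped 3.43-fold in WT and 3.20-fold in the deletion line. What differed was where the drop occurred. Passing from the summit towards Hoxa13, the WT profile fell through a score of 1 at 52155750 and the deletion profile at 52186174, 30.4 kb further on, by interpolation between midpoints. The displacement was 34.2 kb at a score of 1.2, 11.7 kb at 0.8, 9.06 kb at 0.7 and 13.8 kb at 0.6. It was thus larger on the upper part of the slope than on the lower. It was measured at this slope only, so its usual size along the region is not known. The trough below 1 held 15 fragments in WT, from 52151568 to 52319093 (168 kb), and 11 in the deletion line, from 52183982 to the same end (135 kb). Its far edge was thus the same fragment in both lines, and only its cluster side differed.

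On the far side of the trough, while both lines still scored below 1, the order of the lines turned. After the raised stretch the log2 ratio was 0.14 at 52233686 to 52242792, 0.12 at 52242793 to 52253465 and 0.034 at 52253466 to 52265585. It was then below 0 in all other fragments up to 52.4 Mb, which made 13 of 16 fragments lower in the deletion line. The lowest was 52284579 to 52288485, with scores of 0.767 and 0.694 (log2 ratio -0.14). None of these 16 values left the range of the rest, and of all 461 scored fragments 260 were lower in the deletion line. Neighbouring fragments are also not independent, as described below. On the Skap2 side of the cluster, the 29 fragments from 51.9 to 52.1 Mb had log2 ratios between -0.099 and 0.068, with a mean of -0.021 (SD 0.052).

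**Figure D3:**
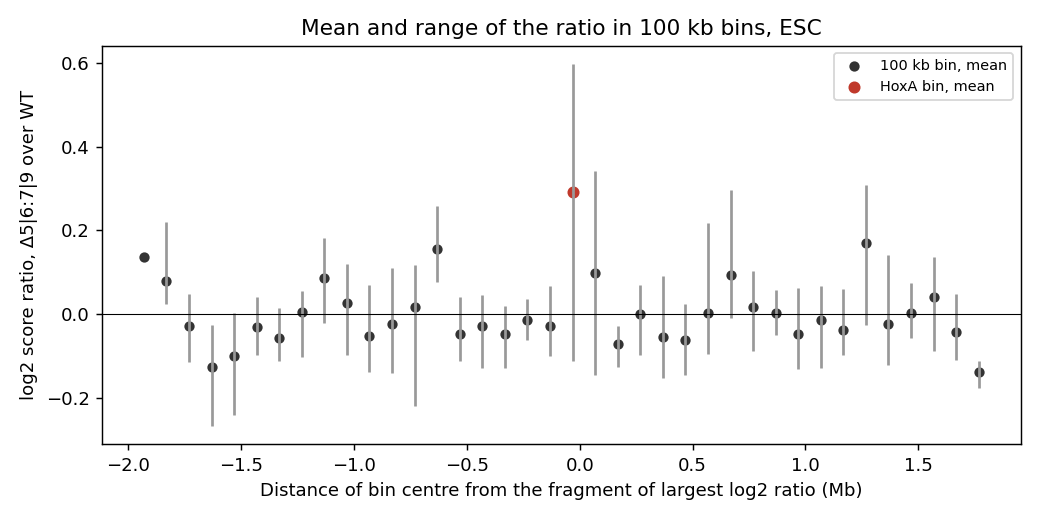
Each point is the mean log2 ratio of scores, deletion line over WT in ESC, in a bin of 100 kb, each line runs from its lowest to its highest fragment, and the horizontal axis is the distance of the bin's centre from the fragment of largest ratio. The HoxA bin (red) has a mean of 0.29, and the other 37 bins lie between -0.14 and 0.17.

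Along the whole region the HoxA bin also stood highest when fragments were grouped otherwise. Of 38 bins of 100 kb, it had the highest mean log2 ratio, 0.29 (SD 0.27 over 19 fragments), and the other 37 ranged from -0.14 to 0.17. With its edges moved 50 kb lower the mean was 0.096, inside that range. The next highest was the bin from 53.4 Mb, where mean scores were 0.823 in WT and 0.922 with the deletion. When the region was instead divided at the local minima of WT ESC, the interval between the minimum on the Skap2 side of the cluster and that on the Hoxa13 side (52102714 to 52190053, 18 fragments) had a mean log2 ratio of 0.28. The other 22 intervals ranged from -0.15 to 0.15, with 8 above 0 and 14 below. Scores there averaged 1.09 in WT and 1.30 with the deletion.

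Outside the cluster 5 fragments were higher by at least 0.25. They were 51537493 to 51547731, which scored 0.438 in WT and 0.524 with the deletion, 52802587 to 52822761 (0.576 and 0.708), and 3 fragments between 53425065 and 53477716. The last group scored 0.827 and 0.993 at 53425065 to 53429216, 0.728 and 0.866 at 53435602 to 53449495, and 0.748 and 0.926 at 53473941 to 53477716. All 5 had WT scores below the median of 0.985. The single fragment lower by 0.25 or more was 50543481 to 50549225, with scores of 0.707 and 0.588; at a threshold of 0.2 there were 4 such fragments. In motor neurons the log2 ratio of deletion over WT at the 5 raised fragments was between -0.087 and 0.12, with 4 of them below 0. Of all 461 fragments, 276 were below 0 in motor neurons. At the lowered fragment the ratio there was 0.025.

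**Figure D4:**
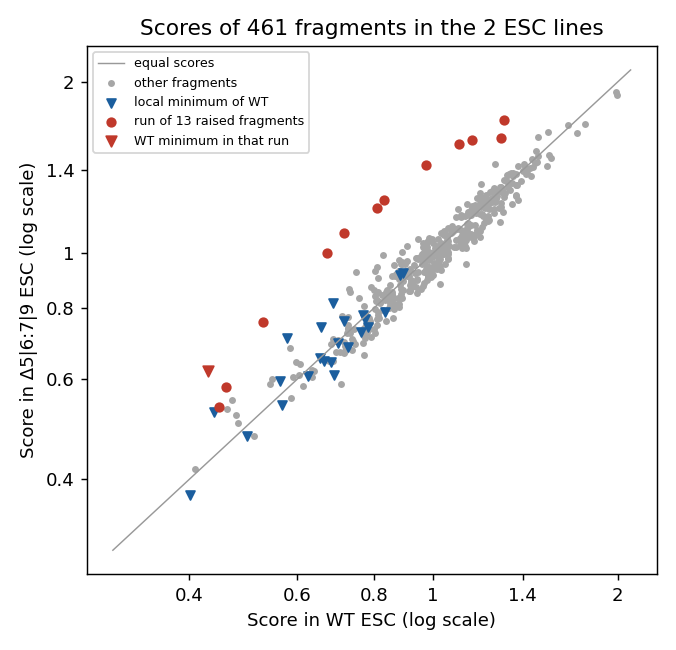
Score of each of the 461 fragments in WT ESC (horizontal axis) against deletion-line ESC (vertical axis), both on log scales, with the line of equal scores. The 13 raised fragments (red) lie above the line from 0.430 to 1.30 on the WT axis, and the local minima of WT (triangles) lie on both sides of it, 11 above and 13 below.

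Higher scores in the deletion line were not a general feature of WT minima. At a prominence of 0.25, 24 minima were called in WT ESC and 26 in the deletion line, and 19 WT minima fell on the same fragment in both. At the 24 WT minima the score was higher in the deletion line in 11 and lower in 13, with a median log2 ratio of -0.013 next to -0.015 over all fragments. Of the 19 shared minima, 12 had a larger prominence in the deletion line and 7 a smaller one. The deepest, 51123835 to 51140455, went from 0.401 to 0.375.

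Besides the cluster's own trough, 3 WT minima had no partner within 20 kb in the deletion line. For each the nearest deletion-line minimum lay at a lower coordinate, opposite to the shift of the HoxA trough. Their distances were close in size to the 28.7 kb of that trough. As minima with a partner within 20 kb were left out, distances above 20 kb were set by the criterion. The 3 minima therefore cannot show how usual a shift of this size is. These were 52087189 to 52099306 on the Skap2 side (28.1 kb), 52449470 to 52468785 (24.1 kb) and 52802587 to 52822761 (28.0 kb). At the first the score was 0.892 in WT and 0.921 with the deletion, and at the second 0.882 and 0.915, so both were shallow. At the third the prominence was 1.20 in WT, and 0.80 at the nearest minimum of the deletion line, 52780718 to 52788549. Those near the first and second were 52061549 to 52068772 and 52425692 to 52444350. A further 2 minima of the deletion line were more than 100 kb from any WT minimum, 52947116 to 52955718 and 53628586 to 53640169, with prominences of 0.36 and 0.32.

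Neighbouring values are not independent. An insulation score in general summarises contacts around a fragment, but the authors' window is not given, and the cause of the dependence was not tested. The log2 ratios of fragments 1 apart correlated at 0.90 over the 461 fragments, those 5 apart at 0.48 and those 10 apart at 0.072. These values include the raised stretch, which contributes to them. The 13 fragments of the raised stretch therefore do not amount to 13 separate observations. In the rest of the region the log2 ratio correlated at -0.022 with the mean log2 score of the lines and at -0.14 with the log2 WT score, over 395 fragments that share both libraries; the WT score is also the denominator of the ratio.

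The same deletion in motor neurons had another shape. There 10 of 461 fragments (2.17%) were higher by at least 0.25 and 4 (0.868%) lower, with 10 of 19 (52.6%) higher in the HoxA bin. Of the 13 fragments raised in ESC, 9 were also at least 0.25 higher in MN, those from 52130049 to 52188538, where the log2 ratio averaged 0.50 in ESC and 0.88 in MN. In MN the ratio peaked at 1.51, at 52151568 to 52163061, whereas in ESC it stayed between 0.52 and 0.60 through the plateau. The displacement of the slope in MN was 23.3 kb at a score of 1, 34.8 kb at 0.8, 36.2 kb at 0.7 and 38.5 kb at 0.6. It thus did not shrink on the lower part of the slope as it did in ESC. At a score of 1.2 it was 31.0 kb, but the WT MN summit of the bin scored only 1.21. That value was thus taken at the WT summit itself. At the remaining 4 fragments the MN ratio ran from -0.34 to -0.001. The difference between cell states was not tested, since each has 1 library per line.

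**Figure D5:**
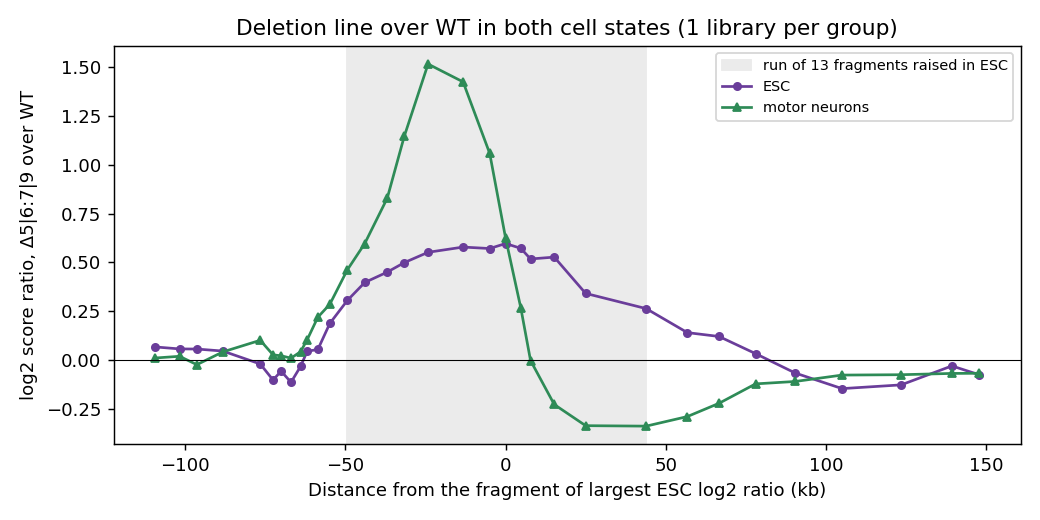
Log2 ratio of scores, deletion line over WT, in ESC (circles) and motor neurons (triangles), against distance in kb from the fragment of largest ESC ratio; the shading marks the 13 fragments raised in ESC. The ESC curve is a broad plateau that reaches 0.60, and the MN curve peaks at 1.51 and falls below 0 towards Hoxa13.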

How the data were processed

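Insulation scores from 5C were analysed for WT and Δ5|6:7|9 ESC, with the MN libraries for comparison. Per the file headers, the authors deposited 1 combined insulation score per HindIII fragment, written by their own script for combining insulation. The submitters' processing notes list Bowtie 1 and mm9. How primers were filtered, contacts normalized, the window set and replicates combined is not given in the sources used here. The depth behind a score is therefore unknown, and counting intervals are not given. A fixed window would spread a change over neighbouring fragments.

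Fragments were matched by start and end, those above 0 in both ESC libraries were kept, and log2 ratios were taken without pseudocount in Python 3.11.15. Local minima were called with SciPy 1.17.1 at a prominence of 0.25 on the log2 score. Finding the largest ratio and the raised stretch was tried on simulated profiles with a planted change, and the slope position on a simulated ramp. The calling and matching of minima were not tried in this way. No test was made, as each group has 1 library. Named fragments were those from 52.1 Mb to 50 kb past 52.2 Mb, those past 0.25 elsewhere, the extremes of each profile and minima unmatched within 20 kb. The fragments and lists were chosen with earlier results of these data known, and the slope positions and interval means were added after seeing the scores. The chromosome is not named in the tables. All 20 genes looked up were found in the RefSeq table of another build, used for order.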

Additional observations from a re-analysis of the deposited data

Results flagged for a closer look

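One result drew attention because its direction differed between cell states. At 3 fragments from 52190054 to 52233685, the trough on the Hoxa13 side, the deletion line was above WT in ESC by at least 0.2 on the log2 scale and below it by as much in MN. Mean log2 ratios were 0.38 and -0.30, and the MN minus ESC difference was -0.68. The fragments were picked by these same ratios, so the direction of the difference and part of its size were set by the criterion. They are also consecutive scored fragments, and ESC log2 ratios of fragments 1 apart correlated at 0.90, so they are not 3 separate observations. In ESC the mean score was 0.445 in WT and 0.579 with the deletion, and in MN it was 0.441 and 0.359. The WT libraries thus had nearly the same level there, and the deletion libraries lay on opposite sides of it. None of the 395 fragments of the rest met this criterion. The difference was not tested.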

How the results depend on the processing

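Of 36 alternative values, 27 stayed within the limits used, 9 moved and none changed direction; 5 of them, for the displacement of the slope, were chosen after seeing the data. The limit was 1 SD of runs of 19 fragments (0.051) for the bin mean, 1 SD of the rest (0.088) for the largest ratio and a factor of 1.5 for counts and lengths. The HoxA bin mean (0.29) was 0.40 as a median, 0.38 weighted by length, 0.096 with the bin 50 kb lower and 0.44 with it 50 kb higher. The count of fragments lower by at least 0.25 was 1, and became 4 at a threshold of 0.2 and 0 at 0.3. The shift of the minimum (28.7 kb) was 18.9 kb after smoothing over 3 fragments. The displacement of the slope (30.4 kb) was 11.7 kb at a score of 0.8 and 13.8 kb at 0.6. At a score of 0.7, which was not among the 36 alternatives, it was 9.06 kb. The raised stretch measured 79.6 kb at a threshold of 0.3 and 73.3 kb after quantile normalization. The causes were not tested. No paired analysis was possible because each group has 1 library. Without depth or replicates, noise in a single library cannot be told apart from an effect of the line.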
